A study of Mus musculus with 6 samples.

Results

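The insulin-like growth factor (IGF) family was described here by 10 genes: the ligands *Igf1* and *Igf2*, the signalling receptor *Igf1r*, and the binding proteins *Igfbp1* to *Igfbp7*. They were taken by gene symbol from 2 tables of raw read counts, one of the uterine luminal layer and one of blastocysts, each listing 23420 genes. All 10 were present in both tables. Each table held 3 libraries, 1 library per group, so no value has a replicate and every interval below covers counting error only.

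The study asked what leukaemia inhibitory factor (Lif), a cytokine of the uterine glands, does when embryos attach to the uterus. Pregnant mice were killed on day 4, at 8 pm. Control females were Lif-floxed/floxed, and Lif eKO females were Lif-floxed/floxed Ltf-Cre/+, in which Cre is driven by lactoferrin and deletes *Lif* in the uterine epithelium, so that every female in the series carried floxed *Lif*. Both of these groups received PBS, and the remaining eKO females received recombinant Lif (rLif), 20 µg per head, injected at 10 am and again at 6 pm, 2 h before collection. Luminal layers were cut from frozen sections by laser microdissection, and blastocysts were flushed from the horns. Embryos in all groups are labelled Lif-floxed/+, a label that does not say whether they carried Cre. RNAs of several mice, or blastocysts, were pooled into the single library of each group.

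Total counts were 23850565 to 28460465 in the luminal libraries and 18996158 to 19638852 in the blastocyst libraries. *Lif* itself was counted 28 times in the luminal library labelled eKO and 0 times in both others, control and rLif-treated, which goes against the label of the eKO library. With 0 counts in the control layer, these counts cannot show whether *Lif* was deleted. The study itself reported deletion specific to the epithelium, from epithelium and stroma isolated from other eKO uteri on day 4. Counts per gene do not show whether the 28 counts fell in the floxed part of *Lif*. The part of RNA from other cells of the cut layer, where Ltf-Cre does not act, was not tested. The luminal libraries are therefore named by their labels throughout. In blastocysts *Lif* had 1447, 1736 and 1250 counts from control, eKO and eKO with rLif females. All 7 luminal epithelial markers were detected in each luminal library, and all 8 stromal markers were as well, with summed levels of 759 CPM, the count scaled to a fixed library size, in the control, 1199 in the eKO and 782 in the eKO with rLif. All 7 trophectoderm markers were detected in the blastocysts. In the luminal libraries 6, 7 and 6 of them were detected too, so detection alone does not tell the tissues apart. Depth was scaled by the trimmed mean of M-values (TMM), and a count of 0 allowed up to 0.104 to 0.119 CPM in luminal and 0.154 to 0.157 CPM in blastocyst libraries (3 counts).

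IGF1 and IGF2 are secreted peptides that signal growth and survival through the receptor tyrosine kinase IGF1R, the insulin receptor substrates and the PI3 kinase and Akt pathway. The IGF binding proteins hold the ligands outside the cell, where they can block them, store them or carry them to the receptor, and proteases release the ligand again. In the rodent uterus IGF1 is produced mainly by stroma and answers to oestrogen, and several binding proteins mark epithelium, stroma or decidua.

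All 10 genes are protein-coding in GENCODE M21. *Igfbp3* lies on chromosome 11 from 7206091 to 7213923 on the minus strand (GRCm38/mm10), and *Igfbp1* on the same chromosome from 7197787 to 7202546 on the plus strand. The pair lie tail to tail with their ends 3544 bases apart and no other gene of the tables between them. *Igfbp2* and *Igfbp5* form a second such pair on chromosome 1, with 5593 bases between their ends. *Igf1* lies on chromosome 10 from 87859056 to 87937047 and *Igfbp6* on chromosome 15 from 102144186 to 102149512, both on the plus strand. Exons of *Igf2* share 98 bases with *Igf2as*, and those of *Igfbp7* share 89 bases with *Polr2b*, in each case on the opposite strand. Whether counting used strand is not given in the sources used here, so the counts of these 2 genes are uncertain to that extent.

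RefSeq promoter windows (GRCm38.p6), each 250 bases before to 50 bases after a start site, were matched for 10 of 10 members, as 14 windows. Those of *Igfbp3* and *Igfbp1* are shown because they were the members called lower in the luminal library labelled eKO, and those of *Igf1* and *Igfbp6* because these were called higher there. Capitals mark the motif matches found in these 4 windows, TATATA in *Igfbp3* at position -30 from the start site and, on the reverse strand, TATAAA in *Igfbp6* at position -148.
Igfbp3, chr11:7213874-7214173, minus strand: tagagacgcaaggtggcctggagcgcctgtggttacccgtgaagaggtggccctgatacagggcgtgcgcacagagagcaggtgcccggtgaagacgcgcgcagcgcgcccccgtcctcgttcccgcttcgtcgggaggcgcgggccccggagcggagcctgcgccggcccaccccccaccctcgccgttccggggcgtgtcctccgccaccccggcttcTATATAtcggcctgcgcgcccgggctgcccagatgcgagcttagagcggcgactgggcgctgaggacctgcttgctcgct
Igfbp1, chr11:7197537-7197836, plus strand: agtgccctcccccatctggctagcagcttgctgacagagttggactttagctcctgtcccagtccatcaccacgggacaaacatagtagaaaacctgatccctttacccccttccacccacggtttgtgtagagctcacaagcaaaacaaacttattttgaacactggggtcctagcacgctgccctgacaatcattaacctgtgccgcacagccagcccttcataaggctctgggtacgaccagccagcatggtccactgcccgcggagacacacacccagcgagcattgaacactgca
Igf1, chr10:87860861-87861160, plus strand: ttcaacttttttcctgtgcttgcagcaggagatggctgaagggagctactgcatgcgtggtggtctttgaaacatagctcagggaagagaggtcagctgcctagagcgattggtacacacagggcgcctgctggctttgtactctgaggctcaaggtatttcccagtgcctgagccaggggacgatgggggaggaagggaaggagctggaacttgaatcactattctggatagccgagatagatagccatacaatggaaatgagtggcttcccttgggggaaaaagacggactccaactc
Igfbp6, chr15:102143936-102144235, plus strand: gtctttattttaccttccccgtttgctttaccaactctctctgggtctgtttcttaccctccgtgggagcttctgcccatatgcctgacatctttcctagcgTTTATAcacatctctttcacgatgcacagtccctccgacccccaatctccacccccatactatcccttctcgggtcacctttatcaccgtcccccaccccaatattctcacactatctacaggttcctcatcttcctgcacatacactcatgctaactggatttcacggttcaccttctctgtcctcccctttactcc

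The *Igfbp3* window was rich in G and C (71.7%, with 37 CpG dinucleotides), and the *Igfbp1* window was at 54.3% with 8, where the medians over all 32851 windows were 52.7% and 7. The windows were searched on both strands for TTCNNNGAA (bound by Stat factors, and its own reverse complement), for TATAAA and TATATA, and for TGTTCT (part of the element bound by progesterone and glucocorticoid receptors). TTCNNNGAA was found in none of the 14 member windows and in 8.3% of all windows. TATAAA was found in 2 member windows and 13.6% of all, TATATA in 1 and 5.67%, and TGTTCT in 2 and 19.0%. No matches overlapped in the member windows. These are descriptions of letters within 300 bases and say nothing of sites elsewhere.

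In the control luminal layer 4 binding proteins led the family. Per length, *Igfbp3* stood first at 1462 CPM per kilobase of exon (RPKM), the 30th highest of the 16070 genes with a count. It was followed by *Igfbp7* at 275 RPKM, *Igfbp4* at 103, *Igfbp6* at 27.6, *Igf1* at 13.7 and *Igf1r* at 4.85. *Igfbp2*, *Igfbp1* and *Igfbp5* came next, at 3.07, 2.48 and 1.98 RPKM. The counting interval of *Igfbp1* overlapped those of both others, while *Igfbp2* lay above *Igfbp5* beyond their intervals. *Igf2* was last at 0.112 RPKM. In the luminal library labelled eKO the order began with *Igfbp7* (201 RPKM), *Igfbp6* (99.6) and *Igfbp4* (86.4), then *Igf1* (42.9), and *Igfbp3* came after these at 6.79 RPKM. With rLif the first 5 places were again those of the control, with *Igfbp3* at 785 RPKM.

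The blastocysts held little of the family. In control blastocysts *Igfbp2* was highest at 10.0 RPKM, then *Igf2* at 6.03, and *Igfbp4* and *Igfbp6*, at 3.89 and 3.62, overlapped. *Igfbp7*, *Igfbp3*, *Igf1* and *Igfbp5* lay between 1.21 and 0.780 RPKM, each overlapping the next, followed by *Igf1r* at 0.477. In blastocysts of eKO and of rLif-treated eKO females *Igf2* came first (4.81 and 3.24 RPKM) and *Igfbp2* second (3.43 and 2.13 RPKM). The plot of levels by library gives all values.

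**Figure D1:**
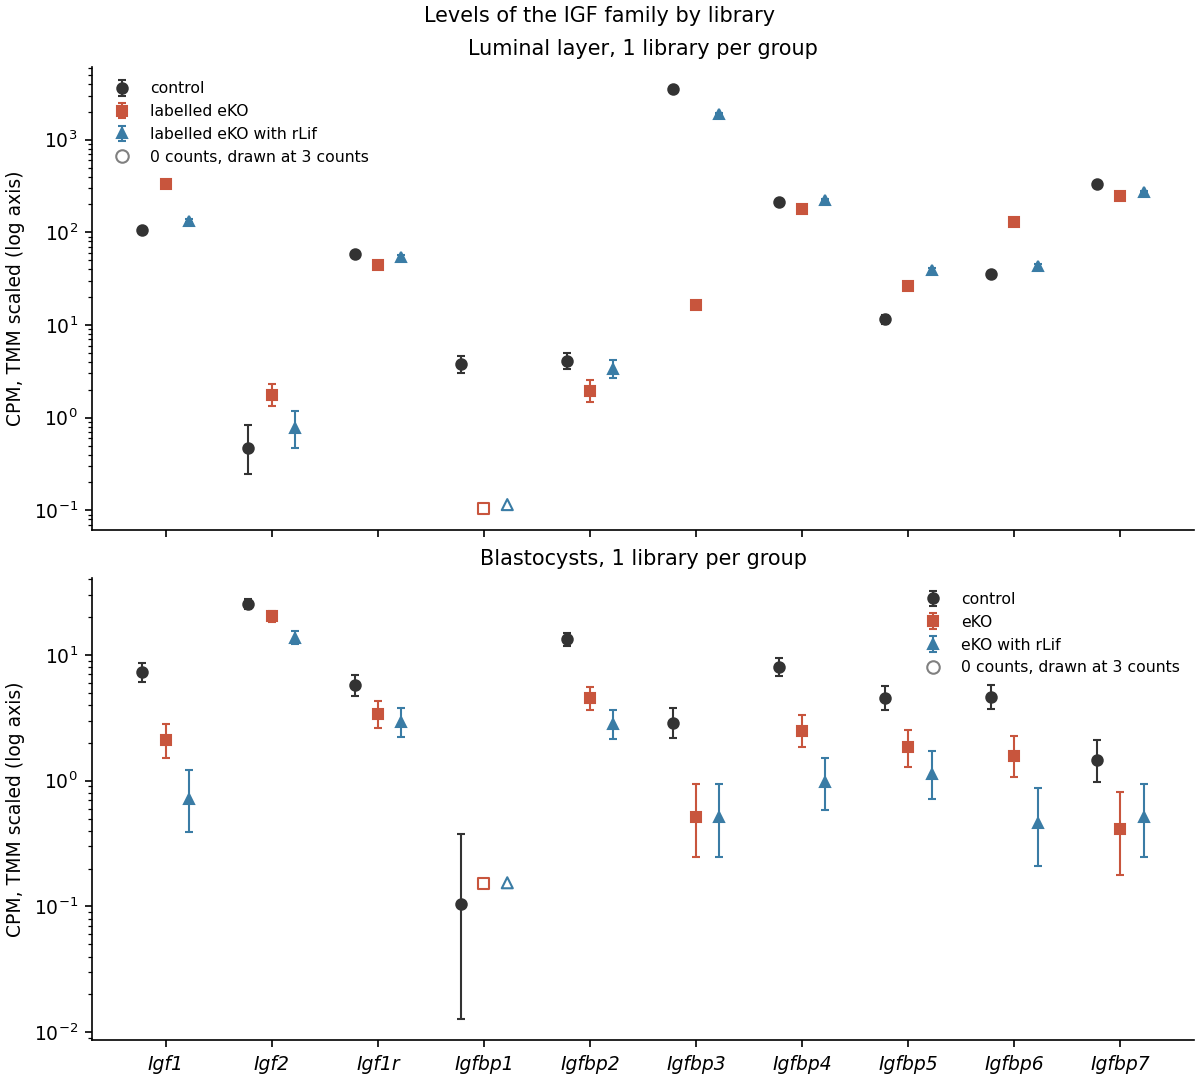
Levels of the 10 IGF family genes in CPM (TMM scaled, log axis) in the 3 luminal libraries (upper panel) and the 3 blastocyst libraries (lower panel). Points are single libraries, bars are exact Poisson 95% intervals, and open symbols are genes with 0 counts, drawn at the level of 3 counts. *Igfbp3* spans 16.6 to 3571 CPM in the luminal layer, and in blastocysts *Igf2* is the highest gene in every library.

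The first comparison set the luminal library labelled eKO against the control. A gene was called when the 95% interval of its ratio (exact, from the 2 counts) lay wholly beyond 2-fold. Of the 10 members 4 were called, *Igf1* and *Igfbp6* higher and *Igfbp3* and *Igfbp1* lower, where 17.2% of all 15694 genes tested were called (8.08% higher and 9.15% lower). The members' median log2 ratio was -0.32 beside 0.01 for all genes, and their median absolute log2 ratio was 1.42 beside 0.58. edgeR's exact test with an assumed dispersion of 0.1 called only *Igfbp3* and *Igfbp1* (7.96% of all genes). That dispersion was set and not estimated, so the spread between animals remains unknown.

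Among the ligands, *Igf1* had 2697 counts in the control, 9625 in the library labelled eKO and 3487 in the treated library, labelled eKO with rLif. The eKO library stood alone above the others. Its ratio to the control was 3.14-fold, or 1.65 on the log2 scale (95% interval 1.59 to 1.71), and the ratio of the rLif library to the eKO library was -1.32 on the log2 scale (-1.38 to -1.27). The rLif library differed from the control by 0.33 on the log2 scale, which was not called. *Igf2*, the imprinted fetal ligand, was scarce, with 12, 51 and 20 counts. Its log2 ratio of 1.90 in eKO against control had an interval from 0.97 to 2.94, which crossed the 2-fold limit. *Igf1* supplied 99.2%, 99.0% and 99.0% of the ligand RPKM in the luminal libraries.

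*Igf1r*, the receptor, was even across the luminal layer, with 1465, 1273 and 1403 counts. Its log2 ratios were -0.39 (-0.50 to -0.28) in eKO against control, 0.28 in rLif against eKO and -0.11 in rLif against control, and none was called.

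*Igfbp3*, the main carrier of IGFs in blood, made the widest change of the family. Its counts were 90135 (control), 476 (labelled eKO) and 49934 (labelled eKO with rLif), or 0.378%, 0.00167% and 0.180% of all counts. The eKO library was far below both others. It was 215-fold lower than the control (log2 ratio -7.75, interval -7.88 to -7.62), the 13th lowest ratio of the 15577 genes with one. With rLif it was 116-fold higher than in the eKO library (log2 ratio 6.85, 6.72 to 6.99). Against the control the rLif library was 1.86-fold lower (log2 ratio -0.90, -0.91 to -0.88). That was not called, but with scaling by total counts the ratio was -1.07 and the gene was called lower, so that the members lower were 2 and not 1. By that scaling 9.37% of all genes were called, higher or lower.

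*Igfbp1*, best known as a product of liver and decidua and the chromosomal neighbour of *Igfbp3*, took another course. It had 95 counts in the control and 0 in each of the other luminal libraries. With 3 counts in place of 0, its level was lower by 36.0-fold without rLif and by 32.7-fold with it. The 95% intervals of these log2 ratios reached up to -4.84 and -4.70. The gene was thus at 0 with rLif where *Igfbp3* was at 49934 counts, and no ratio can be given between the treated and untreated eKO libraries. The control level was low, 2.48 RPKM.

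*Igfbp6*, which prefers IGF2 to IGF1, followed *Igf1*. It had 897, 3685 and 1125 counts, highest in the library labelled eKO. The log2 ratio was 1.85 (1.75 to 1.96) in eKO against control and -1.57 (-1.67 to -1.47) in rLif against eKO. In rLif against control it was 0.28 and not called. The summed stromal markers were also highest in the same library, at 1199 CPM against 759 in the control. Their median log2 ratio was 0.34 over 8 genes, with 7 above 0 and 1 below. *Col3a1* alone was called (1.14), at 227 CPM in the control and 501 in the eKO library. *Hand2* was lowest in the eKO library, at 15.8, 14.3 and 21.8 CPM in the 3 libraries. Smooth muscle markers went the other way, at 70.4, 50.5 and 31.4 CPM summed over 6 genes in the 3 libraries. The part of other cells in the cut layer in the *Igf1* and *Igfbp6* ratios was not tested, and in bulk tissue fewer cells of a type cannot be told apart from less RNA per cell.

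*Igfbp5*, a binding protein with affinity for extracellular matrix, was the only member higher in both eKO libraries than in the control and highest with rLif. It had 292, 760 and 1014 counts, in the order control, labelled eKO, labelled eKO with rLif. The log2 ratio to the control was 1.19 in the eKO library, with an interval of 1.00 to 1.39 whose lower end fell just short of 2-fold. It was 1.75 (1.56 to 1.94) in the rLif library and was called there.

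The other 3 binding proteins were not called in any luminal comparison. *Igfbp4*, which is cleaved by the protease PAPP-A, had 5360, 5128 and 5802 counts. *Igfbp7*, a distant relative that binds IGFs weakly, had 8423, 7014 and 7139, and *Igfbp2* had 103, 56 and 88. Each of *Igfbp4* and *Igfbp7* varied by at most 1.37-fold between libraries, and *Igfbp2* reached -1.07 on the log2 scale in eKO against control, with an interval of -1.56 to -0.58.

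With rLif in place of PBS in eKO females, 3 members were called in the luminal layer, *Igfbp3* higher and *Igf1* and *Igfbp6* lower, where 15.6% of genes were called, 7.88% higher and 7.77% lower. Between eKO with rLif and control, 2 members were called, *Igfbp5* higher and *Igfbp1* lower, where 9.16% of genes were called, 4.12% higher and 5.04% lower. By the exact test with assumed dispersion *Igfbp3* alone was called in the first of these (7.07% of all genes) and *Igfbp1* alone in the second (2.18%). The 3 luminal comparisons share libraries. The last one does not use the library labelled eKO, and with that library also left out of the filter and scaling it again called 2 members. Without it the other 2 luminal comparisons cannot be made. The plot of luminal ratios shows *Igfbp3*, *Igf1* and *Igfbp6* closer to 0 in the treated library against control than in the untreated one, and *Igfbp5* farther from it.

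**Figure D2:**
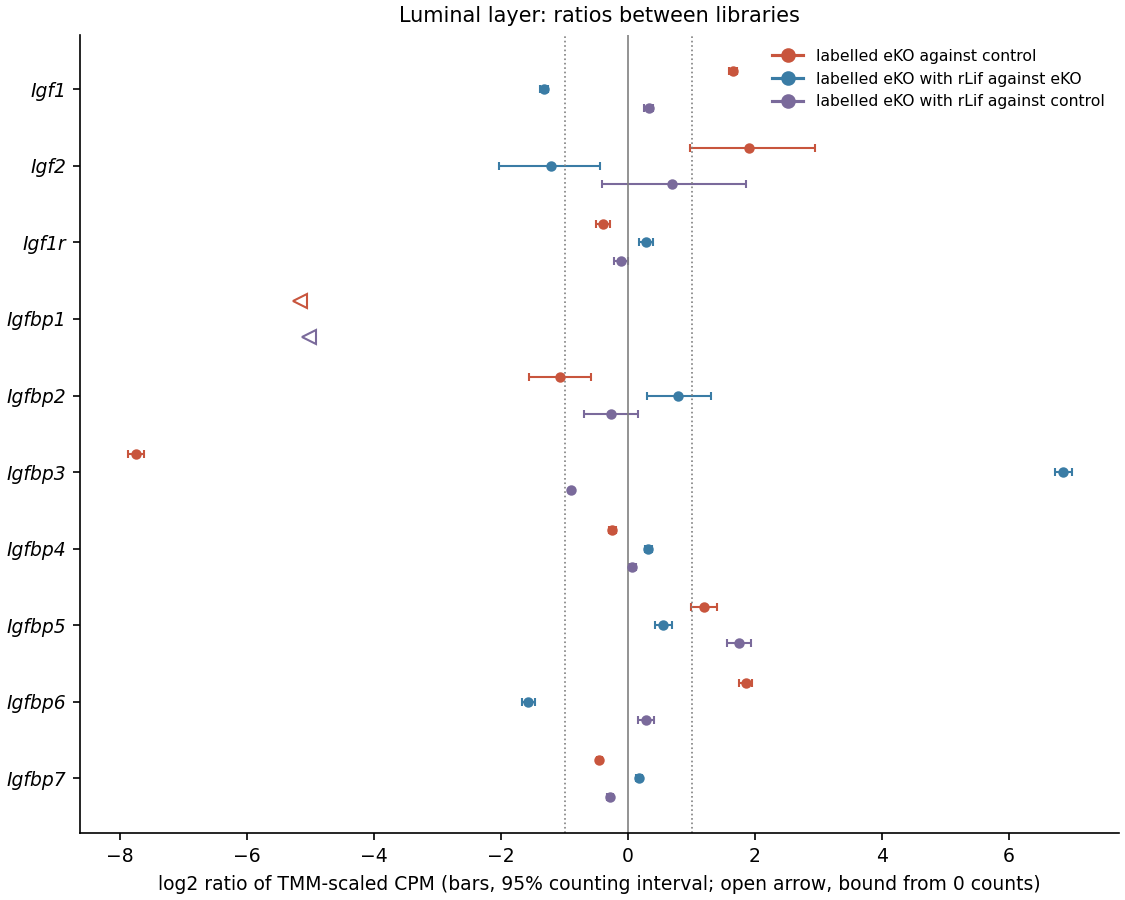
Log2 ratios between luminal libraries for the 10 IGF family genes, with 95% counting intervals as bars, open arrows for bounds from a count of 0, and dotted lines at 2-fold. *Igfbp3* lies at -7.75 in eKO against control, at 6.85 in eKO with rLif against eKO and at -0.90 in eKO with rLif against control, and *Igfbp1* has no ratio where both libraries are at 0.

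The make-up of the binding proteins changed mainly through *Igfbp3*. It held 85.6% of the summed *Igfbp* counts in the control luminal layer (exact binomial 95% interval 85.4 to 85.8), 2.78% (2.54 to 3.04) in the library labelled eKO and 76.7% (76.4 to 77.0) with rLif. Summed over the 7 genes, the level was 1875, 400 and 1162 RPKM. Without *Igfbp3* it was 413, 393 and 377 RPKM, so that the other 6 together moved by at most 1.10-fold. That sum held opposed shifts, as *Igfbp6* was at 27.6, 99.6 and 33.5 RPKM and *Igfbp7* at 275, 201 and 226. The ratio of *Igfbp* to ligand RPKM was 136 in the control, 9.24 in the library labelled eKO and 67.1 with rLif, as the ligand sum was 13.8, 43.3 and 17.3 RPKM.

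**Figure D3:**
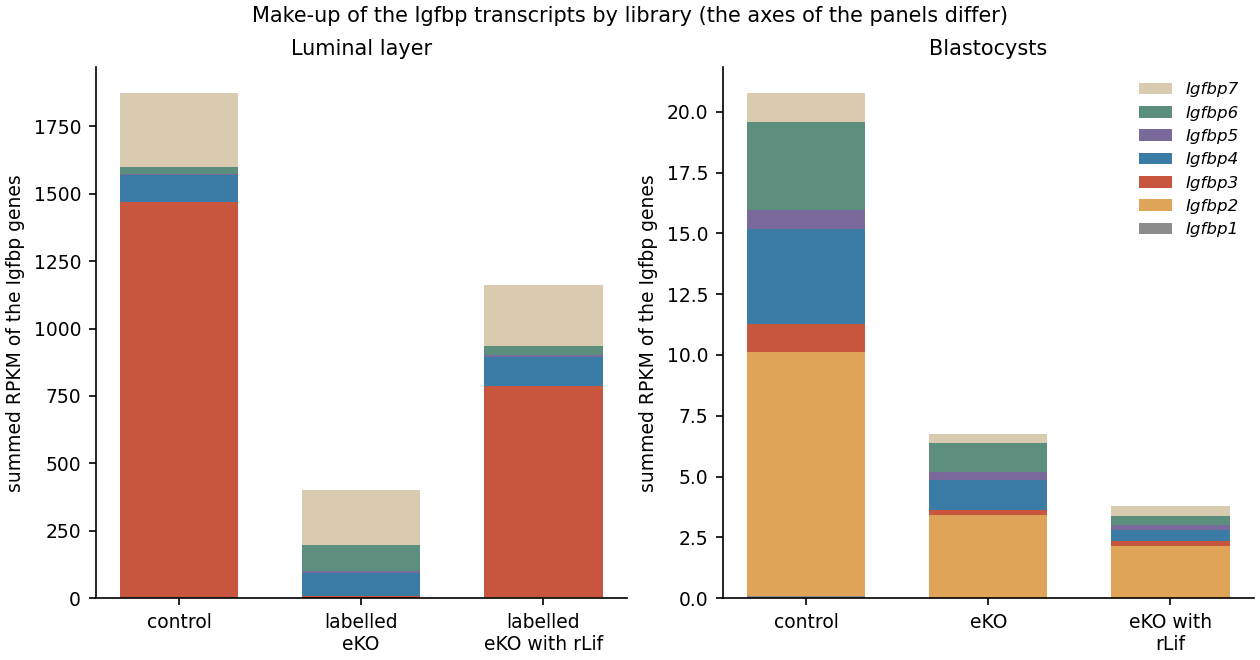
Summed RPKM of the 7 *Igfbp* genes in each library, stacked by gene, for the luminal layer (left) and blastocysts (right), with axes that differ between the panels and both start at 0. The luminal bars total 1875, 400 and 1162 RPKM and differ mainly by *Igfbp3*, and the blastocyst bars total 20.8, 6.74 and 3.79 RPKM, with *Igfbp2* the largest piece of each.

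Between control luminal layer and control blastocysts, with the 6 libraries scaled together, all 10 members were called, 8 higher in the luminal layer and 2 higher in the blastocyst, where 52.1% of 17081 genes were called, 27% higher and 25.1% lower in the luminal layer. The largest log2 ratios of the luminal layer to blastocysts were 10.42 for *Igfbp3* and 7.98 for *Igfbp7*. The genes higher in blastocysts were *Igf2*, at -5.60 (-6.56 to -4.78), and *Igfbp2*, at -1.56 (-1.90 to -1.22). The blastocyst ligand was mostly *Igf2*, and *Igf1* made up 13.4% of the ligand RPKM in control blastocysts and 2.76% in those of rLif-treated females.

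In blastocysts the question was whether the embryo's transcripts depended on the mother's *Lif*. Of the 9 members tested 4 were called in eKO against control, all lower, namely *Igf1*, *Igfbp2*, *Igfbp3* and *Igfbp4*, where 3.15% of 14873 genes were called, 1.29% higher and 1.86% lower. All 9 ratios were below 0, with a median of -1.56 beside 0.00 over all genes. In eKO with rLif against control 6 were called, the same 4 with *Igfbp5* and *Igfbp6*, all lower, where 4.94% of genes were called, 0.948% higher and 3.99% lower. Their median was -2.24 beside -0.01 over all genes. These 2 comparisons share the control library. In eKO with rLif against eKO 0 of 9 were called, where 3.75% of genes were called (0.914% higher and 2.83% lower). The members' median was -0.69 there beside -0.01 over all genes, with 7 ratios below 0 and 2 above. In this comparison the exact test with assumed dispersion also called 0 (0.39% of all genes). By that test 0 members were called in eKO against control as well (0.437% of all genes), and 3 in eKO with rLif against control (0.834%), *Igf1*, *Igfbp4* and *Igfbp6*. Without the control library in the filter and scaling, the members called between the eKO libraries by the 2-fold limit were again 0.

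*Igfbp2*, the most abundant binding protein of the blastocysts, had 254 counts in the control, 89 from eKO and 55 from eKO with rLif females. The control library stood above both others. The log2 ratio to the control was -1.55 (-1.91 to -1.20) for eKO and -2.24 (-2.68 to -1.81) for eKO with rLif. *Igf1* had 139, 41 and 14 counts, again highest in the control. Its log2 ratios to the control were -1.80 (-2.34 to -1.29) and -3.34 (-4.25 to -2.54), and that between the eKO libraries, -1.54, had an interval of -2.53 to -0.64.

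*Igfbp4* moved as *Igf1* did, with 153, 49 and 19 counts, and log2 ratios to the control of -1.68 and -3.04. *Igfbp3* had 55, 10 and 10 counts. Its ratios were -2.50 and -2.49 with wide intervals (-3.63 to -1.51 for the first), and no difference between the eKO libraries was detectable at this depth (log2 ratio 0.01, -1.41 to 1.43). *Igfbp6* had 89, 31 and 9 counts and *Igfbp5* had 87, 36 and 22, and both were called only with rLif, at -3.33 and -2.01. The control library was the highest for each of these genes, all of them with small counts.

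*Igf2* was the best counted member in blastocysts, with 487, 398 and 267 counts. Its log2 ratios were -0.33 (-0.52 to -0.13), -0.57 and -0.90 (-1.12 to -0.68), and none was called. *Igf1r* had 109, 66 and 57 counts, with ratios to the control of -0.76 and -0.96, and *Igfbp7* had 28, 8 and 10. Neither was called. *Igfbp1* had 2, 0 and 0 counts and was not tested. The summed *Igfbp* level of the blastocysts was 20.8, 6.74 and 3.79 RPKM, and the ratio of *Igfbp* to ligand RPKM was 2.99, 1.33 and 1.14.

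Markers of uterine stroma moved with these genes in the blastocyst libraries. Of the 8 stromal markers, 7 were tested, and 2 were called lower in eKO and 4 in eKO with rLif against control, with median log2 ratios of -1.06 and -1.71. *Dcn* had 164, 84 and 51 counts, *Col1a2* had 53, 11 and 10, and *Hoxa10* had 48, 17 and 6. *Pdgfra*, also a primitive endoderm marker, had 2354, 2845 and 2718 counts, and without it the stromal markers summed to 32.7, 13.9 and 11.0 CPM. Of the 7 luminal epithelial markers, 6 were tested, and *Krt19* alone was called lower against control, in both eKO libraries, with 1401, 241 and 108 counts. The list's median log2 ratios were 0.05 and -0.03. *Wnt7a*, a marker of uterine epithelium on the same list, was at 0 in all 3 blastocyst libraries and at 2916 to 4338 counts in the luminal libraries. Other uterine cell lists did not all move with the stroma. Of 5 immune markers tested, 4 had ratios above 0 in eKO against control, with a median log2 ratio of 0.65. Their median was -0.57 in eKO with rLif against control. In the same 2 comparisons the medians were -0.02 and -0.35 for 4 smooth muscle markers, and -0.65 and -0.08 for 5 endothelial markers. Of the endothelial markers 3 lay below 0 and 2 above in each. On the glandular epithelial list *Foxa2* alone was tested, with 103, 61 and 26 counts. Its log2 ratios to the control were -0.79 and -2.01, and the second was called lower. In the luminal libraries *Foxa2* had 3, 0 and 10 counts. The part of maternal RNA in the blastocyst ratios was not tested. The plot of blastocyst ratios sets both groups of genes side by side.

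**Figure D4:**
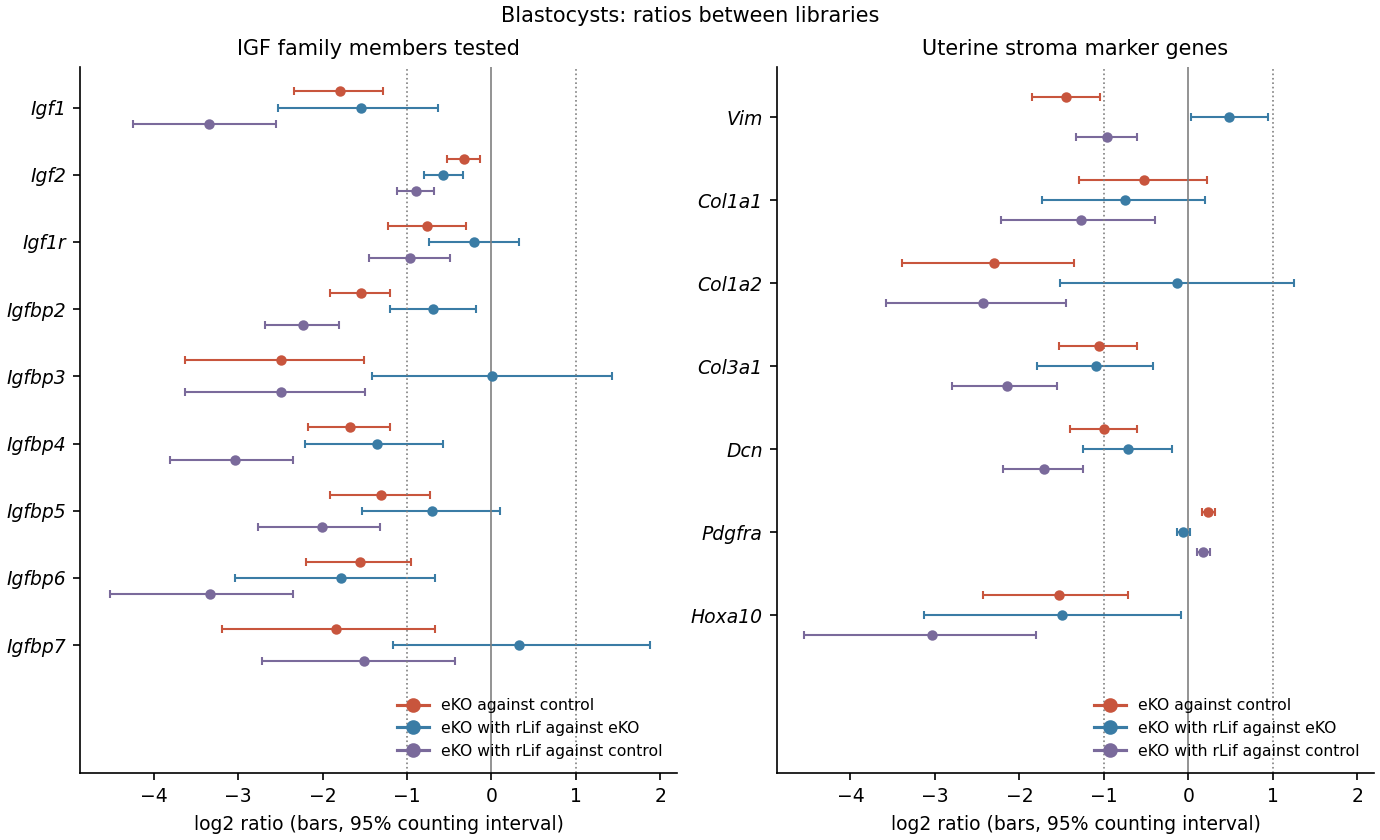
Log2 ratios between blastocyst libraries for the 9 IGF family genes tested (left) and 7 stromal marker genes tested (right), with 95% counting intervals as bars and dotted lines at 2-fold. In eKO against control all 9 family genes lie below 0 and so do 6 of the 7 stromal markers, with *Pdgfra* at 0.24.

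A list of 35 other genes of the pathway, 13 extracellular, 19 intracellular and 3 that bind *Igf2* mRNA, was examined in the same way. In the luminal layer 31 were tested. In eKO against control 7 were higher and 3 lower, in eKO with rLif against eKO 0 were higher and 5 lower, and in eKO with rLif against control 0 were higher and 1 lower, beside the shares of all genes given above. *Stc1*, stanniocalcin 1, an inhibitor of PAPP-A, had 161, 2865 and 176 counts in the same order. Its log2 ratio was 3.97 (3.74 to 4.21) in eKO against control and -3.88 in rLif against eKO. *Stc2*, the second inhibitor of this protease, went the other way, at 134, 50 and 77 counts, or -1.61 on the log2 scale in eKO against control. *Pappa*, which encodes PAPP-A, had 72, 160 and 38 counts and was called lower in rLif against eKO, at -1.93. The protein partner of *Igfbp3* in blood, *Igfals*, had 0, 32 and 0 counts. With 3 counts in place of 0 in the control, the eKO library was 9.38-fold higher, and the interval of the log2 ratio began at 2.85. *Igfals* had under 100 luminal counts in sum and was named here after its values were seen.

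Genes of 2 cell-surface proteins that bind IGFBP3 were called higher in eKO against control, *Lrp1* with 192, 563 and 435 counts (log2 ratio 1.37) and *Tmem219* with 727, 1851 and 1386 (1.16). Inside the cell, *Irs1*, the docking protein of the receptor, had 329, 1302 and 437 counts, and *Pik3r3*, a regulatory subunit of PI3 kinase, had 391, 1477 and 477. Both were called higher in eKO against control (1.80 and 1.73) and lower in rLif against eKO (-1.43 and -1.49). *Gsk3b*, a kinase inhibited by Akt, was higher in eKO against control (1.26), although 260 bases of its exons are shared with *BC031361*. *Akt1* had 3529, 1685 and 2510 counts, at -1.25 in eKO against control. *Foxo1*, a transcription factor that Akt holds out of the nucleus, had 7462, 1884 and 3324 counts, at -2.17 in eKO against control and still at -1.21 in rLif against control.

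In blastocysts 30 of the 35 genes were tested. In eKO against control 0 were called, where 3.15% of all genes were called. The shares of all genes called were 3.75% in eKO with rLif against eKO and 4.94% in eKO with rLif against control. In eKO with rLif against eKO, *Foxo3* was higher (141, 155 and 396 counts from control, eKO and eKO with rLif, log2 ratio 1.36), and *Igfals* (32, 63 and 11 counts, -2.51) and *Stc2* (12, 38 and 4 counts, -3.24) were lower. *Stc2* was named after its values were seen, since it had under 100 counts in sum. In eKO with rLif against control *Foxo3* was higher at 1.46, and *Htra1*, a secreted serine protease that cleaves binding proteins, was lower at -1.48, with 3786, 2747 and 1385 counts. *Igf2r*, which clears IGF2, had 2023, 2540 and 2606 counts and was not called. The pathway list as a whole thus had a median of 0.09 in eKO against control where the members had -1.56.

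Likeness of pattern was measured as the largest difference of centred log2 CPM (with 2 CPM added) over the 3 libraries of a tissue. For *Igfbp3*, the member with the widest spread in the luminal layer, the closest of 12844 genes was *Atp6v0d2*, a subunit of the vacuolar proton pump, with 20580, 105 and 7332 counts and a largest difference of 0.56. Next were *Cyp26a1*, a retinoic acid hydroxylase (0.92), *Lgr5*, an R-spondin receptor (1.26), *Ttpa* (1.34) and *8430408G22Rik* (1.45). For *Igf1* in blastocysts the closest of 11348 genes included *Lef1* (93, 20 and 0 counts), *Igfbp4*, *Afap1* and *Egfr*, with largest differences of 0.0050 to 0.065. *Igf1* lay at 7.29, 2.10 and 0.72 CPM there, so the added 2 CPM shrinks such differences. Over 3 libraries such likeness is a description only.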

How the data were processed

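Tables of luminal layers and blastocysts, 6 libraries in all, were used. RNA was amplified with the SMART-seq v4 kit. By the submitters' processing notes and the study's methods, paired reads were aligned to GRCm38/mm10 with HISAT2, and the deposited counts per gene came from featureCounts in Subread 2.0.0. The methods name reads per kilobase, but the deposited values are whole-number counts, with the exon length per gene as the other column used. Strand setting and annotation are not given in the sources used here. Groups came from the sample titles.

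From these counts, CPM with TMM scaling (edgeR 4.0.16 in R 4.3.3), RPKM from the deposited exon length and ratios with exact Clopper-Pearson 95% intervals were computed for genes whose counts in the 3 libraries of a tissue (6 between tissues) came to 10 or more. PCR reads without molecular identifiers are not independent molecules, so intervals and limits cover counting error only, and no p-value is given. A ratio was called when its interval lay wholly beyond 2-fold. A design with replicates was not possible. The calls were tested on simulated data. All 10 members were named. Pathway genes were named if called in a tissue with at least 100 counts summed there, and the 5 genes nearest to the member of widest spread in each tissue were named, except 1 that is not reported here. Members, lists and rules were chosen with earlier results of these data known. Alternatives were DESeq2 1.42.0 size factors, total counts, no filter, a 4-fold limit and edgeR's exact test with an assumed dispersion of 0.1. No deposited column was left unmapped.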

Additional observations from a re-analysis of the deposited data

Results flagged for a closer look

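*Igf1* in eKO against control had a log2 ratio of 1.65 in the luminal layer and -1.80 in blastocysts, opposite directions in the 2 tissues. *Igfbp5* in eKO with rLif against control had a log2 ratio of 1.75 in the luminal layer and -2.01 in blastocysts. Each tissue had 1 library per group, and the difference between the tissues was not tested in either case.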

How the results depend on the processing

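No paired analysis was possible because each group had 1 library, and for the same reason no replicate could be left out. With a 4-fold limit 2 members were called in luminal eKO against control (*Igfbp1* and *Igfbp3*), where 5.53% of all genes passed it. In luminal eKO with rLif 1 member was called against eKO (*Igfbp3*, 4.78% of all genes) and 1 against control (*Igfbp1*, 1.88%). In blastocyst eKO against control 0 were called, where 0.672% of all genes passed it. In blastocyst eKO with rLif against control 3 were called (*Igf1*, *Igfbp4* and *Igfbp6*), where 1% of all genes passed it. edgeR's exact test with an assumed dispersion of 0.1 gave the same 2, 1, 1, 0 and 3 members. Over all genes these settings called 868 and 1250 genes in luminal eKO against control, in place of 2704, and 100 and 65 in blastocyst eKO against control, in place of 468. No called member ratio changed sign. *Igfbp4*, not called, went from 0.07 to -0.11 on the log2 scale in luminal eKO with rLif against control when scaled by total counts. Of 37 alternative counts of members called, 27 were within 1.5 times, and of 217 alternative member ratios 204 moved by less than their counting interval. The other 13 were luminal ratios scaled by total counts, which moved the median of all genes from -0.01 to -0.12 in eKO with rLif against eKO and from 0.01 to -0.16 in eKO with rLif against control. In the latter the share of calls that were higher fell from 45% to 29.9%. The members called there were 3 and not 2, where 9.37% of all genes were called. The depth limits *Igf2* in the luminal layer and most members in blastocysts, where counts were under 260 outside *Igf2*.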
